A study of Homo sapiens with 4 samples.

Results

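Cohesin, its regulators and CTCF are described here through 10 genes measured by RNA-seq in HEK-293 cells, a transformed line grown from human embryonic kidney. The genes were listed by symbol, with earlier results of these data known. They were SMC1A, SMC3, RAD21, STAG1, STAG2, NIPBL, PDS5A, PDS5B, WAPAL and CTCF. They made up 10 of the 24934 rows of the expression table, with 1 row for each gene.

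Cohesin is a ring-shaped protein complex that embraces DNA. The long coiled-coil proteins SMC1A and SMC3 are closed into the ring by the kleisin RAD21, to which STAG1 or STAG2 binds. The ring holds sister chromatids together until anaphase and extrudes loops of chromatin in interphase, many of which stop at DNA bound by the zinc finger protein CTCF. NIPBL activates and loads cohesin, PDS5A and PDS5B bind the loaded ring, and WAPAL releases it from chromatin.

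The study asked how loss of the zinc finger transcription factors ZSCAN5A and ZSCAN5B alters gene expression. HEK-293 cells were transfected for 48 h with 10 nM of siRNA 4 or siRNA 5 against ZSCAN5A (si4 and si5), siRNA 1 against ZSCAN5B (si1) or a scrambled negative control siRNA. No allele or drug was added to any of the 4 groups, and all received the same transfection reagent. Each siRNA and the control were represented by 1 library, so no difference below has a replicate check. The si4 and si5 libraries share a target gene but are different siRNAs. Levels are given in FPKM, fragments scaled to transcript length in kilobases and to library depth, as deposited.

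The relative depth of the libraries, estimated from the steps between the lowest FPKM values, was 1.09, 1.54 and 1.02 times that of the control for si4, si5 and si1. At about 53400000 to 81200000 fragments in the siRNA libraries and 52600000 in the control, the members rested on an estimated 1900 to 72200 fragments each. Counting error alone then gave a standard error of 0.0083 to 0.046 for a log2 ratio of a member to the control. ZSCAN5A was at 0.730 and 0.713 FPKM with si4 and si5 against 2.42 in the control and 2.53 with si1. ZSCAN5B was near the limit of detection, at 0.0948 FPKM with si1 and 0.0903 in the control, or 16 and 15 fragments from the steps between low FPKM values and 9.14 and 8.58 from the annotated length and depth. It was thus not seen to be lower in the library labelled ZSCAN5B knockdown, but so few fragments are a weak check of that label. With si4 and si5, ZSCAN5B was at 0.0331 and 0.0663 FPKM, or 6 and 17 fragments from the same steps. All 7 genes listed as features of HEK-293 cells reached 1 FPKM in some library, although PAX2 did so only in the control at 1.16 FPKM. Of 12 markers of blood, fibroblasts, liver, endothelium and muscle, COL1A1 alone reached 1 FPKM, their summed level was 1.68 to 2.60 FPKM, and HBB was at 0 in every library.

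The sequences that each siRNA was designed to match are shown first because siRNAs can also act on other transcripts through bases 2 to 8 of their guide strand. The capitals mark the 7 bases of the target opposite those positions, assuming that the guide is the full complement of the listed target.
si4: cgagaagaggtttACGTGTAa
si5: aagctagtcatccACAAGAGa
si1: acgtgtgcaataaATCATTTa
The si4 target lay at chr19:56733332-56733352 and the si5 target at chr19:56733307-56733327, both on the minus strand of GRCh37 in the coding part of exon 6 of 6 of ZSCAN5A. The si1 target lay at chr19:56701591-56701611 in the coding part of exon 5 of 5 of ZSCAN5B, also on the minus strand. None of the 10 genes held the 7 capital bases of si4 or si5 in its annotated 3′ untranslated region (UTR). The 7 bases of si1 were found once each in the 3′ UTRs of SMC1A, STAG1, NIPBL, WAPAL and CTCF, which is 5 of 10 genes against 23.4% of 12043 expressed genes. The corresponding shares over those genes were 3.35% for si4 and 12% for si5. These shares were not matched for 3′ UTR length, and longer UTRs hold more 7-base stretches. Member 3′ UTRs ran from 1305 bases for CTCF to 5954 for SMC1A. Of the 5 genes with a match to si1, SMC1A and CTCF were lower and STAG1, NIPBL and WAPAL were higher in the si1 library than in the control. A match is a description of the letters only, and its part in any level was not tested. The match in SMC1A is printed with its flanks because SMC1A had the lowest ratio to the control among the 10 genes, and its 7 bases lay at chrX:53404995-53405001 on the minus strand of GRCh37.
SMC1A: gttatcctatATCATTTtcatcccaag

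Promoters of the 2 members with the highest ratios to the control, STAG2 and SMC3, and of SMC1A are printed for comparison, from 250 bases before to 50 bases after the RefSeq start (GRCh38.p14). Capitals mark CCAAT (found in NF-Y targets), TTTGAA (CHR element of cell cycle genes), TTTCCCGC (E2F) or TCTCGCGA, each searched on both strands.
STAG2: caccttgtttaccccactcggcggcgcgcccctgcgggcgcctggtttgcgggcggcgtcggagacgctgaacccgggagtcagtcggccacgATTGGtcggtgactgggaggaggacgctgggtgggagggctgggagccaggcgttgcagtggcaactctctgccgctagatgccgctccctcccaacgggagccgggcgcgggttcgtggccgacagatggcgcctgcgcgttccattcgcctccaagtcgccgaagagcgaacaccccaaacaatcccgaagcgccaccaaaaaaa
SMC3: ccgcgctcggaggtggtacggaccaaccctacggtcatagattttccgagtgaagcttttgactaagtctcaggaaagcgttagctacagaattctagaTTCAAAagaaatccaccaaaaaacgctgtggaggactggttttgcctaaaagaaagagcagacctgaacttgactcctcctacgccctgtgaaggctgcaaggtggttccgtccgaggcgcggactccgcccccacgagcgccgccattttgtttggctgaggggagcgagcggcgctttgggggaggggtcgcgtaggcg
SMC1A: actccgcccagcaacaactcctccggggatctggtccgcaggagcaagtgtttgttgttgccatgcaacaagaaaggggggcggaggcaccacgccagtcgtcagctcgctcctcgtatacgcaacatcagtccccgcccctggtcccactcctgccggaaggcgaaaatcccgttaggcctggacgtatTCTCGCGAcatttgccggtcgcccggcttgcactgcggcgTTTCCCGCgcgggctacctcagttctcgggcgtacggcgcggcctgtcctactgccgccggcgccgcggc
The STAG2 window was chrX:123960310-123960609 on the plus strand and held CCAAT on the minus strand. The SMC3 window was chr10:110567445-110567744 on the plus strand and held TTTGAA on the minus strand. The SMC1A window was chrX:53422605-53422904 on the minus strand and held TTTCCCGC and TCTCGCGA. The promoter sequences used here held 12 starts for 9 of the 10 genes, 3 for STAG2 and 2 for SMC1A. They held none for RAD21, so its promoter was not searched. CCAAT was present at 6 of the 12 starts against 34.6% of 35093 promoters of the same length. TTTGAA was present at 3 against 15.2%, TTTCCCGC at 2 against 1.63% and TCTCGCGA at 3 against 1.15%, with the 2 overlapping SMC1A windows sharing the same TCTCGCGA. The further motif TTTGGCGC was present at 2 starts against 0.653%. Motifs of YY1, NRF1 and TFIIIC were also searched and were present at 0 of the 12 starts, against 2.89%, 1.24% and 0.185%. Motifs of ETS factors and of CTCF were present at 1 start each, against 4.14% and 2.41%. None of the motifs searched was therefore shared by all of the genes, and no binding was measured.

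None of the 10 genes differed from the scrambled control by more than 1.5-fold, the limit used for a call. This held for the mean of si4 and si5, for which 3.79% of 12993 expressed genes passed the limit (0.677% higher and 3.11% lower), and for si1, for which 4.01% of 12921 did (0.844% higher and 3.17% lower). Smaller differences were unevenly spread, and in these bulk libraries fewer cells expressing a gene and less RNA per cell cannot be told apart. STAG2 was 1.44-fold higher with the mean of si4 and si5 and 1.38-fold higher in the library labelled ZSCAN5B knockdown. SMC3 was 1.35-fold and 1.13-fold higher. SMC1A was lower, at 0.892 and 0.824 of the control. The remaining 7 genes lay between 0.992 and 1.17 of the control with si4 and si5, and between 0.974 and 1.09 with si1.

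**Figure D1:**
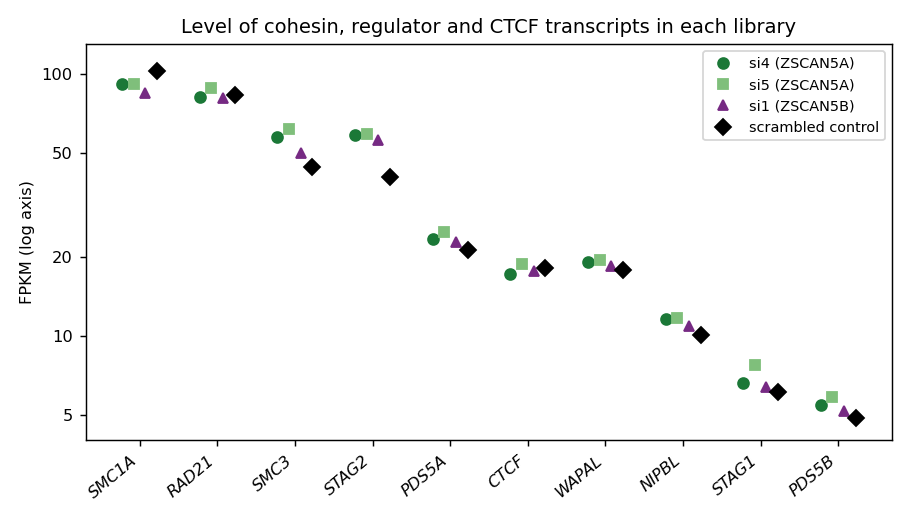
FPKM on a log axis of each of the 10 genes in the 4 libraries, 1 point per library. SMC1A and RAD21 were the most abundant and PDS5B the least, and the order of the genes was nearly the same in every library.

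The core ring genes other than STAG1 were the most abundant of the set. SMC1A (chrX:53401070-53449618, hg19) was at 102 FPKM in the control and at 91.1, 91.6 and 84.3 FPKM after si4, si5 and si1. It was the highest of the 10 genes in every library and the only member lower than the control in all 3 siRNA libraries, a pattern shared by 36.2% of 12983 expressed genes. The si4 and si5 values nearly coincided, and the log2 ratios to the control were −0.17, −0.16 and −0.28 for si4, si5 and si1. These fell inside the 5th to 95th percentile range of 8053 genes with 5 to 125 FPKM in every library, a wide span of levels. That range ran from −0.37 to 0.31 for the mean of si4 and si5 and from −0.40 to 0.34 for si1. The trend with expression level was also removed, a correction chosen after seeing the data. SMC1A was then at −0.30 with si4 and si5 and −0.42 with si1.

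SMC3 (chr10:112327449-112364392), the partner of SMC1A in the ring, was at 44.2 FPKM in the control and at 57.2, 61.7 and 49.9 FPKM after si4, si5 and si1. All 3 siRNA libraries were above the control, with si4 and si5 farther from it than si1. The log2 ratios were 0.37, 0.48 and 0.17. The mean of si4 and si5 stood at percentile 98.2 of all expressed genes and the si1 ratio at percentile 78.9. The reference names a processed copy, SMC3P1, and how reads matching both were counted is not given in the sources used here, so the level of SMC3 carries that uncertainty.

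RAD21 (chr8:117858173-117887105), whose product closes the ring and is cut by separase, was at 83.1 FPKM in the control and at 81.6, 88.6 and 81.2 FPKM after si4, si5 and si1. The si5 library was above the control and the other two were just below it, with log2 ratios of −0.03, 0.09 and −0.03. The difference between si4 and si5 was 0.12 on the log2 scale and exceeded the distance of their mean from the control, 0.03. RAD21 also has a pseudogene copy, RAD21P1, and overlaps RAD21-AS1, an antisense gene at 0.513 to 0.748 FPKM. Whether counting used the strand of the reads is not stated.

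STAG2 (chrX:123094475-123236505), the subunit often lost in bladder cancer and Ewing sarcoma, was at 40.5 FPKM in the control and at 58.3, 58.8 and 55.9 FPKM after si4, si5 and si1. The siRNA libraries lay close together and the control stood apart below them. The log2 ratios were 0.52, 0.54 and 0.47, at percentile 99.1 for the mean of si4 and si5 and 98.3 for si1. The si4 and si5 libraries differed by only 0.01 on the log2 scale, whereas 95% of genes at 5 to 125 FPKM differed by up to 0.38. STAG2 was the only member above the control by more than 1.3-fold in all 3 siRNA libraries, which 0.701% of expressed genes also were. Since every ratio shares the same control library, a low STAG2 value in that library alone and a higher value after each siRNA cannot be told apart.

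STAG1 (chr3:136055999-136471245), the alternative subunit, was at 6.12 FPKM in the control and at 6.60, 7.73 and 6.39 FPKM after si4, si5 and si1. All siRNA libraries were above the control, and si5 was the highest. Its log2 ratios were 0.11, 0.34 and 0.06, and the si4 and si5 values differed by 0.23, the largest such difference among the 10 genes.

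The regulators were expressed at lower levels than SMC1A, SMC3, RAD21 and STAG2. They were slightly higher in each siRNA library than in the control. NIPBL (chr5:36876861-37065921) was at 11.6, 11.7 and 10.9 FPKM with si4, si5 and si1 and 10.0 in the control, giving log2 ratios of 0.21, 0.22 and 0.12. PDS5A (chr4:39824483-39979576) was at 23.5, 24.9 and 22.8 FPKM against 21.2, with log2 ratios of 0.15, 0.23 and 0.10. PDS5B (chr13:33160564-33352158) was the least abundant member, at 5.47, 5.86 and 5.17 FPKM against 4.84, with log2 ratios of 0.18, 0.27 and 0.09. In all 3 genes the siRNA libraries kept the order si5, si4, si1 and the control was the lowest. WAPAL (chr10:88195013-88281541), now named WAPL, was at 19.2, 19.4 and 18.6 FPKM against 17.9. Its log2 ratios were 0.10, 0.12 and 0.05. These were about the size of the median difference between si4 and si5, 0.10, over genes at 5 to 125 FPKM.

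CTCF (chr16:67596310-67673088) was at 18.2 FPKM in the control and at 17.3, 18.9 and 17.8 FPKM after si4, si5 and si1. The control lay inside the range of the siRNA libraries. The log2 ratios were −0.08, 0.05 and −0.04, and the difference of 0.13 between si4 and si5 exceeded that of their mean from the control, −0.01.

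**Figure D2:**
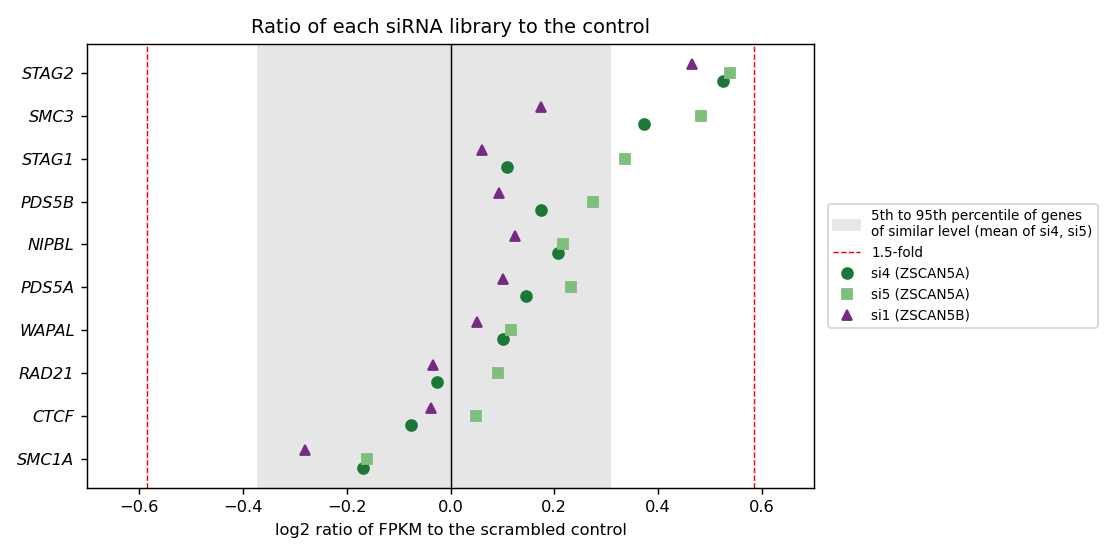
Log2 ratio of FPKM to the scrambled control for each gene, with 1 symbol per siRNA library. The grey band is the 5th to 95th percentile of the mean of si4 and si5 over 8053 genes at 5 to 125 FPKM, and the dashed lines mark 1.5-fold. STAG2 lay outside the band with all 3 siRNAs, SMC3 with si4 and si5 and STAG1 with si5, and no point passed 1.5-fold.

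Counted by direction, 8 of the 10 genes were higher than the control with the mean of si4 and si5, where 46.7% of expressed genes were. In the library labelled ZSCAN5B knockdown 7 of 10 were higher, where 48.5% of expressed genes were. The same 7 genes, SMC3, STAG1, STAG2, NIPBL, PDS5A, PDS5B and WAPAL, were above the control in all 3 siRNA libraries, against 30.1% of expressed genes. The median log2 ratio of the members was 0.20 with si4 and si5 (all genes −0.02) and 0.08 with si1 (all genes −0.01). By siRNA, the median was 0.13 with si4 and 0.22 with si5. At the smaller limit of 1.2-fold, SMC3 and STAG2 were higher with si4 and si5, as were 9.14% of expressed genes. None was lower, where 17.8% were. These were 2 of 10 members past 1.2-fold in either direction, against 26.9% of expressed genes. With si1, STAG2 was higher by that limit, as were 11.1%, and SMC1A was lower, as were 17.4%, again 2 of 10 members against 28.4% in either direction. STAG2 was also the only member above the control by 1.2-fold in all 3 siRNA libraries, where 3.34% of expressed genes were. The share of members past 1.2-fold was thus near the background in both comparisons. No member had si4 and si5 on the same side of the control and si1 on the other, as 10.1% of expressed genes did. The members were not replicates of a condition, and all of these ratios share 1 control library.

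Comparisons among the siRNA libraries do not use the control. All 10 genes were lower with si1 than with the mean of si4 and si5. The share of all expressed genes with this direction was not computed, so the count cannot be read as a trait of the members. The log2 differences ran from −0.03 for CTCF to −0.25 for SMC3, and 9 of the 10 were smaller in size than 0.17. For SMC3 the si1 level of 49.9 FPKM lay below both ZSCAN5A siRNAs by more than these differed from each other, 0.11 on the log2 scale. For STAG2 the si1 level was only 0.07 below the mean of si4 and si5.

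Because FPKM values are per length, levels of different genes can be set beside each other. The order in the control ran SMC1A, RAD21, SMC3, STAG2, PDS5A, CTCF, WAPAL, NIPBL, STAG1 and PDS5B. SMC1A and RAD21 were followed by SMC3 and STAG2, which were close in every library and changed places with si4 and si1. CTCF and WAPAL, at 17.3 to 18.9 and 17.9 to 19.4 FPKM, overlapped across libraries, so their order was not fixed.

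Ratios between ring subunits differed between the control and every siRNA library. All of these differences share the 1 control library, so an unusual control and a change after each siRNA cannot be told apart. Ratios between other gene pairs were not examined as a background. The ratio of SMC1A to SMC3 was 2.32 in the control and 1.59, 1.48 and 1.69 after si4, si5 and si1. The control was therefore the library in which the 2 partner genes were farthest apart. STAG2 relative to RAD21 was 0.714, 0.664 and 0.689 in the siRNA libraries and 0.487 in the control. STAG2 relative to SMC1A was 0.640, 0.642 and 0.663 against 0.396, with log2 differences of 0.70 and 0.75 from the control. This was the largest shift among the 12 pairs examined. The pair joins the members with the highest and lowest ratios to the control, so its shift restates those ratios and is not a separate result. The STAG2 share of the summed STAG1 and STAG2 level was 89.8%, 88.4% and 89.8% against 86.9%, so STAG2 was the main subunit throughout. The sum of STAG1 and STAG2 was 64.9, 66.5 and 62.3 FPKM against 46.6.

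Among the remaining pairs, PDS5A over PDS5B and CTCF over RAD21 stayed nearly constant. PDS5A stood at 4.29, 4.25 and 4.40 times PDS5B in the siRNA libraries and 4.38 times in the control. CTCF relative to RAD21 was 0.212, 0.213 and 0.219 against 0.219. NIPBL relative to MAU2, the partner with which it forms the loader, was 0.797, 0.870 and 0.839 against 0.663, with NIPBL slightly higher and MAU2 slightly lower than in the control. These ratios are of RNA, and no protein or complex was measured.

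**Figure D3:**
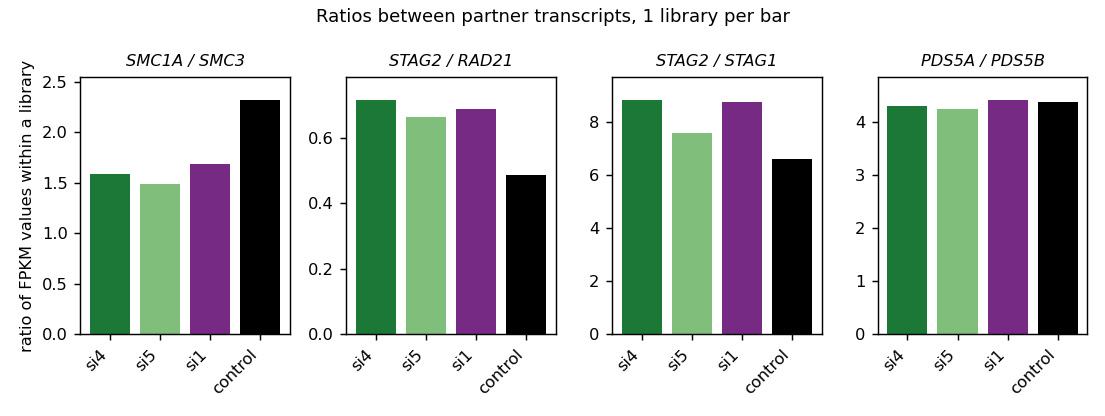
Ratio of FPKM between partner genes in each of the 4 libraries. SMC1A over SMC3 was highest in the control at 2.32 and STAG2 over RAD21 lowest there at 0.487, while PDS5A over PDS5B stayed between 4.25 and 4.40.

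Base composition moved with the ratios. The annotated transcripts ranged from 36.4% GC for PDS5B and 36.6% for STAG2 to 47.0% for SMC1A and 47.4% for CTCF. Over the 10 genes, the Spearman correlation between GC content and the log2 ratio was −0.84 for the mean of si4 and si5 and −0.75 for si1, a description of 10 genes that share the same libraries. Over 12502 expressed genes it was −0.16 and −0.15. The 1094 genes at or below 38% GC had a median log2 ratio of 0.08 with si4 and si5 and 0.07 with si1, well under the values of STAG2 and, with si4 and si5, SMC3. The 2290 genes with transcripts over 6000 bases, a class that holds 7 of the members, had medians of −0.12 in both comparisons. After subtracting the median of genes alike in transcript length and GC content, STAG2 was at 0.48 with si4 and si5 and 0.43 with si1, SMC3 at 0.38 and 0.14, and SMC1A at −0.0045 and −0.12. The median of the members was then 0.21 and 0.11. With the trend in GC content alone removed, a correction chosen after seeing the data, it was 0.15 and 0.02, so most of the si1 median was no longer there, while STAG2 was still at 0.44 and 0.39 and SMC1A at −0.12 and −0.25. With the trend in expression level alone removed, also chosen after seeing the data, SMC1A was at −0.30 and −0.42. STAG2 was then at 0.45 and 0.38 and SMC3 at 0.35 and 0.09. The SMC1A ratio with si4 and si5 was thus close to the median of genes of both its length and composition. It was not close to that of genes of its composition alone or of its level alone. The part of length, base composition or level in any of the ratios was not tested.

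**Figure D4:**
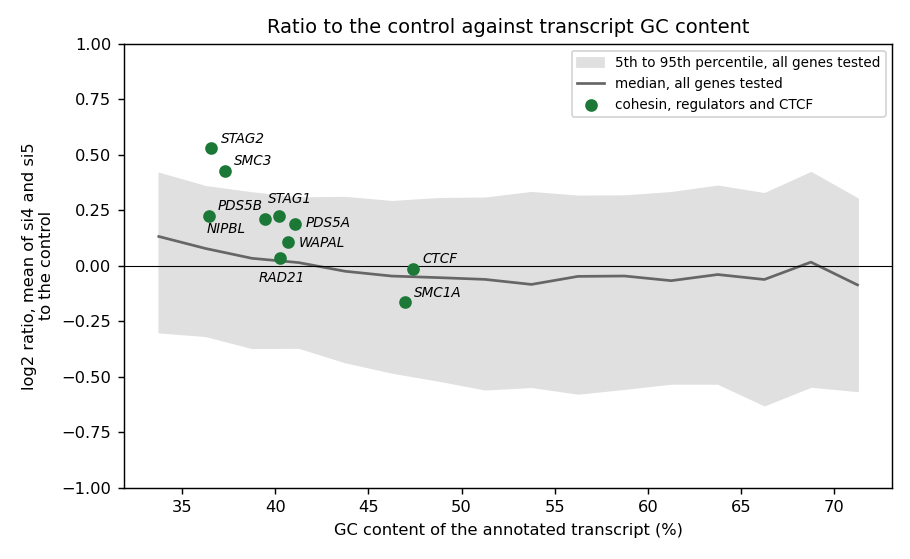
Log2 ratio of the mean of si4 and si5 to the control against GC content of the annotated transcript, with the 10 genes as points. The line and band are the median and the 5th to 95th percentile of all expressed genes in bins of GC content, and STAG2 and SMC3 lay above the band at about 37% GC.

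Beyond the 10 genes, 30 further cohesin-linked genes were followed, of which 25 reached 1 FPKM. Their median log2 ratios were −0.03 in both comparisons, with 12 of 25 higher than the control with si4 and si5 and 11 of 25 with si1. The upward median of the 10 members was therefore not seen across the longer list, although the difference between the lists was not tested.

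The 12 genes of loading and cohesion had medians of −0.05 and −0.01. ESCO1, an acetyltransferase that acts on SMC3, was at 11.8, 12.4 and 11.3 FPKM in the si4, si5 and si1 libraries and 9.35 in the control, and was the only one above the control by 1.2-fold in all 3. Its S-phase paralog ESCO2 was at 8.58, 9.92 and 9.39 FPKM against 8.42. MAU2 was at 14.6, 13.4 and 13.0 FPKM against 15.1. CDCA5, known as sororin, the factor that opposes WAPAL, was at 23.1, 26.1 and 24.0 FPKM against 25.1, and HDAC8, the SMC3 deacetylase, at 14.7, 15.1 and 15.7 against 15.3. DSCC1, CHTF18 and CHTF8 of the alternative clamp loader, the helicase DDX11, the replisome factor WDHD1 and the fork protection pair TIMELESS and TIPIN had log2 ratios between −0.20 and 0.24 with si4 and si5 and between −0.32 and 0.10 with si1.

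The 9 genes of protection and release had medians of 0.05 and −0.02. SGOL2, a shugoshin that shields centromeric cohesin, was at 11.0, 12.6 and 9.82 FPKM against 9.05, and its paralog SGOL1 at 11.3, 11.9 and 11.1 against 11.2. PLK1, a mitotic kinase that drives cohesin release, was at 47.5, 51.6 and 45.7 FPKM against 58.2. ESPL1, which encodes separase, was at 15.9, 20.1 and 14.7 FPKM against 21.3, a log2 ratio of −0.24 with the mean of si4 and si5 and −0.54 with si1. PTTG1, which encodes its inhibitor securin, was at 226, 232 and 230 FPKM against 203. Separase RNA was thus lower and securin RNA higher than the control in each siRNA library, by less than 1.5-fold. Of the 9 genes, 4 were below the control in all 3 siRNA libraries and 4 above it, against 36.2% and 30.1% of expressed genes. The ESPL1 log2 ratio was −0.42 with si4 and −0.08 with si5. GSG2, which encodes the kinase haspin, was at 7.47, 7.21 and 7.65 FPKM against 9.04. AURKB, PPP2R5A and PPP2R1A had log2 ratios between −0.12 and 0.16 over both comparisons.

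The 4 chromatin partners had medians of 0.06 and −0.08. ADNP, which encodes a subunit of a chromatin remodelling complex, was at 17.3, 19.1 and 18.6 FPKM against 23.8. YY1, ZNF143 and MAZ had log2 ratios between −0.14 and 0.22 over both comparisons. The germline forms SMC1B, REC8, RAD21L1, STAG3 and CTCFL were all under 1 FPKM, with STAG3 in the control the highest at 0.522, and were not compared.

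**Figure D5:**
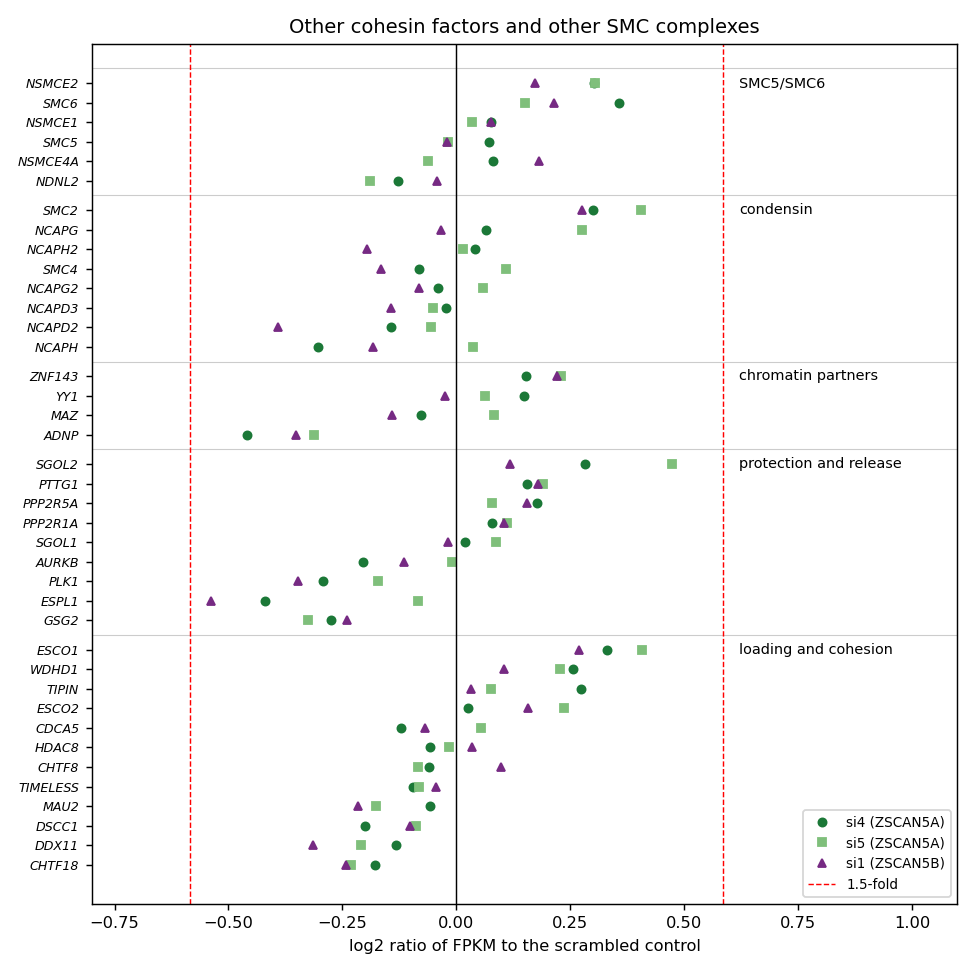
Log2 ratio of FPKM to the control for cohesin-linked genes at 1 FPKM or more and for the other SMC complexes, with 1 symbol per siRNA library and dashed lines at 1.5-fold. ESCO1 and SMC2 lay above the control in all 3 siRNA libraries, and ADNP, PLK1 and ESPL1 below it.

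The other SMC complexes gave smaller medians than the cohesin members with si4 and si5. The 8 condensin genes had medians of 0.01 and −0.15, with 5 and 1 higher than the control, and SMC2 was at 21.4, 23.1 and 21.1 FPKM against 17.4 in the control. The 6 genes of the SMC5/SMC6 complex had medians of 0.04 and 0.12, and SMC6 was at 17.5, 15.2 and 15.9 FPKM against 13.7. Whether these medians differ from that of cohesin was not tested. The median of 16 genes of S phase was 0.03 with si4 and si5 and −0.13 with si1. Of these 16 genes, 9 were higher than the control with si4 and si5, and with si1 2 were higher and 14 lower, opposite in direction to the members' median in that library. The median of 16 genes of G2 and M phase was 0.08 and −0.03. By siRNA, 7 of these 16 were higher than the control with si4 and 14 with si5, beside 7 and 9 of the 10 members and 47.9% and 45% of expressed genes. The part of cell cycle position in the members' levels was not tested.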

How the data were processed

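RNA was sequenced from HEK-293 cells after transfection with si4, si5, si1 or a scrambled siRNA, with 1 library each. The deposited values are FPKM made by the authors from reads aligned to hg19. The submitters' processing notes name CASAVA 1.8.2, Trimmomatic 0.30, TopHat2 2.1.0 and Cufflinks 2.2.1. How reads with several matches were treated is not given in the sources used here, and the labels and the methods name different stranded library kits. FPKM depends on the share of RNA taken by other genes, so values are relative.

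Ratios to the control were taken without a pseudocount for genes with at least 1 FPKM in 1 library of a comparison and neither side at 0. The mean of si4 and si5 and the si1 value were each compared with the control, and more than 1.5-fold was called. With 1 library per siRNA these ratios carry no test, and limma was run as an alternative only. Transcript lengths, GC content and 3′ UTRs came from GENCODE annotation lifted to GRCh37, for the transcripts of 96.5% of expressed genes. Depth was estimated from FPKM steps in 2840 weakly expressed genes, of which 65.6% had values in whole-number proportions within 0.1%. This gave fragment totals with an interquartile range of 43600000 to 56100000 for the control, and these and the counting errors cover counting only. FPKM columns were used for all 4 libraries and 0 value columns belonged to no sample.

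The 10 members, the lists of related genes, and the rule for named genes were chosen with earlier results of these data known. The rule named all members, every listed cohesin-linked gene at 1 FPKM or more, both targeted genes and the 5 genes with the most similar ratios. The cohesin-linked list as first fixed held 1 further gene, which is not reported here and is in none of the counts for that list. Genes of other lists that are named (SMC2, SMC6, NCAPG and NCAPH2) were picked after their values were seen. Alternatives were other pseudocounts, scalings, filters and fold limits, and trends with length, GC content and level removed. Each ZSCAN5A siRNA alone and limma 3.58.1 in R 4.3.3 were further alternatives. limma was also tried on simulated data with larger changes than any member showed, so that trial does not bear on differences of the members' size. Python 3.11.15, NumPy 2.4.6, pandas 2.3.3, SciPy 1.17.1 and matplotlib 3.10.9 were used.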

Additional observations from a re-analysis of the deposited data

Results flagged for a closer look

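No member of the set was above the control with both ZSCAN5A siRNAs and below it with si1, or the reverse. Over all expressed genes, 10.1% had such opposite directions. Of 25 cohesin-linked, 8 condensin and 6 SMC5/SMC6 genes, 6 in all did, and these differences were not tested. The log2 difference of si1 from the ZSCAN5A siRNAs (their mean FPKM) was 0.071 for HDAC8 and 0.171 for CHTF8, which were below the control with si4 and si5 and above it with si1. It was −0.071 for SGOL1, −0.131 for YY1, −0.208 for NCAPG and −0.222 for NCAPH2, which were above the control with si4 and si5 and below it with si1. HDAC8 deacetylates SMC3, and NCAPG and NCAPH2 are condensin subunits. None of the 6 genes passed 1.5-fold in either comparison.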

How the results depend on the processing

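The absence of calls among the members depended on the fold limit. At 1.2-fold, 2 members were called with si4 and si5 and 2 with si1, against 26.9% and 28.4% of expressed genes. At 1.3-fold these were 2 and 1 members, against 12.6% and 13.4% of expressed genes. The count stayed at 0 under the other pseudocounts, scalings, filters and trend corrections. The members' median with si4 or si5 alone ranged from 0.13 to 0.22. Removing the trend with expression level, an alternative chosen after seeing the data, as was the trend with GC content alone, left 2 members rather than 1 below the control in all 3 siRNA libraries. Of 220 recomputed ratios of single members, 7 changed sign, all of RAD21 or CTCF with si4 and si5, which lay closest to 0. For CTCF the values were 0.0025 with median-ratio scaling, 0.013 with upper-quartile scaling, 0.057 with the length and GC trend removed, 0.037 with the GC trend removed and 0.049 with si5 alone. For RAD21 they were −0.026 with si4 alone and −0.099 with the level trend removed. Over all genes, the 492 and 518 calls became 199 and 210 on the log2(FPKM + 1) scale, 2512 and 2364 with no filter, 205 and 252 with a filter of 5 FPKM and 73 and 67 at 2-fold. limma, which takes the spread from si4 and si5, tested 13044 genes and called 10, none a member, at an adjusted p of at least 0.393 for each member. Without adjustment, 1618 genes including STAG2 and SMC3 were under 0.05 by limma. No paired analysis was possible because each siRNA and the control had 1 library and the labels record no pairing. The counting error of a member's log2 ratio was at most 0.046, and for CTCF, at 0.030 to 0.034 in the single libraries, it exceeded the ratio of −0.01 with si4 and si5. The lack of replicates leaves the spread of the control unknown.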

Other observations

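The 5 genes of 8644 at 5 FPKM or more in every library whose 3 log2 ratios to the control lay closest to the members' medians were RIPK4, RPS6KB1, ATP1A1OS, DLX1 and ZNF345, at Euclidean distances of 0.0133 to 0.0337. RPS6KB1, which encodes a ribosomal protein S6 kinase, was at 21.3, 22.8 and 20.7 FPKM with si4, si5 and si1 and 19.7 in the control. RIPK4, which encodes a protein kinase, was at 5.98, 6.35 and 5.72 FPKM against 5.47. DLX1, which encodes a homeobox transcription factor, was at 8.78, 9.53 and 8.75 FPKM against 8.17.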
